A study of Mus musculus with 21 samples.

Results

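MHC class II genes were examined in forebrain RNA of mice that carry human APOE alleles, with and without a mutant human tau transgene. The gene set was given by name and holds 10 genes, each matched to 1 of the 55401 Ensembl mouse gene identifiers in the count table: the classical chains H2-Aa, H2-Ab1 and H2-Eb1, the invariant chain Cd74, the peptide-loading chains H2-DMa, H2-DMb1, H2-DMb2, H2-Oa and H2-Ob, and the transactivator Ciita. The list was drawn up with earlier results of these data known, and all 10 passed the low-count filter in every comparison.

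An MHC class II molecule is an alpha and a beta chain that together display peptides from endosomes to CD4 T cells. The invariant chain escorts new pairs to the endosome and blocks their groove, lysosomal cathepsins cut it away, H2-DM swaps its remnant for peptide, and H2-DO restrains H2-DM. CIITA, which does not itself bind DNA, switches the family on from a promoter complex of RFX, NF-Y and CREB proteins, and in the brain the genes are known mainly from border-associated macrophages, dendritic cells, B cells and activated microglia.

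The 21 mice formed 6 groups. The parental groups E2H, E3H and E4H (n = 3 each) were homozygous for targeted replacement of mouse Apoe by human APOE2, APOE3 or APOE4 on a C57BL6 background, and were 9 to 10 months old. Mice of the tau groups (PS/E2H, PS/E3H, PS/E4H, n = 4 each) had the same alleles in the same state and also carried the P301S tau transgene of line PS19, which is driven by the mouse prion promoter and was kept as a heterozygote on B6/C3H. They were taken at hindlimb paralysis, so the transgene, the paralysis, the age at death and any remaining C3H genome cannot be told apart in a comparison with parental mice. All groups carry human in place of mouse Apoe, so none shows a wild-type baseline.

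Each sample was poly(A) RNA from 1 pulverized frozen forebrain. The libraries held 59265459 to 75932183 gene counts, of which the 10 genes took 1836 to 2528 in parental mice and 3094 to 8841 in PS19 mice. Xist, the X-inactivation RNA of female cells, had 164 to 189 counts in E4H 3, PS/E2H 2, PS/E4H 1 and PS/E4H 4, and the Y-linked Ddx3y had 2517 to 4246. In the other 17 mice Xist had 12188 to 36358 counts and Ddx3y 0 to 21. The sexes given in the study's methods are the reverse of this pattern. PS/E2H against E2H, PS/E4H against E4H and the pooled fit were repeated without these 4 mice. Results that changed there are given with both values. The APOE comparisons and the interactions were not repeated without the 4 mice together.

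Of the 10 genes, 8 lie on chromosome 17 (GRCm38). H2-Oa (chr17:34092340-34095234), H2-DMa (chr17:34119541-34139101), H2-DMb2 (chr17:34143307-34151555), H2-DMb1 (chr17:34153072-34160230), H2-Ob (chr17:34238903-34254414), H2-Ab1 (chr17:34257689-34269419) and H2-Eb1 (chr17:34305867-34316674) lie on the plus strand, and H2-Aa (chr17:34282744-34287823) on the minus strand. Cd74 and Ciita lie on other chromosomes.

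The promoters of class II genes are known for an X box, bound by RFX, followed by a Y box, bound by NF-Y. RefSeq promoter windows (GRCm38.p6) were at hand for 7 of the 10 genes. The 250 bases before each gene start were searched on the gene's strand for the letters GCAAC, the core of the X box, followed by ATTGG, the core of the Y box, with starts 25 to 45 bases apart. H2-Aa, H2-Eb1, H2-Oa and H2-Ob held this pair, and H2-DMa, H2-DMb1 and H2-DMb2 did not. Only exact matches of the letters were counted, so a variant of either core was missed. The H2-DMb1 and H2-DMb2 windows held ATTGG but no exact GCAAC on either strand. Of all 32851 windows of this length, 0.435% held the pair, 29.9% held GCAAC on either strand and 33.8% held ATTGG on either strand. The 4 matching stretches are shown because they let the spacing be compared across the genes whose RNA levels follow, with GCAAC and ATTGG in capitals, 5′ to 3′ on the gene's strand.
H2-Aa, chr17:34287852-34287924, minus strand: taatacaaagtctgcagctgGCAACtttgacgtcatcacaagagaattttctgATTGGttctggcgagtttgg
H2-Eb1, chr17:34305756-34305827, plus strand: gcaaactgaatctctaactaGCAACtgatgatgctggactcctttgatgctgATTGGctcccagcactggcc
H2-Oa, chr17:34092283-34092355, plus strand: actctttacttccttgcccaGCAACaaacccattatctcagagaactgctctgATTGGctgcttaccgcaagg
H2-Ob, chr17:34238798-34238867, plus strand: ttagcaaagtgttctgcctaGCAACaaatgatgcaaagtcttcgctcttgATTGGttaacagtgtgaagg
The starts of GCAAC and ATTGG were 33 bases apart for H2-Aa, 32 for H2-Eb1, 33 for H2-Oa and 30 for H2-Ob. A match of letters is a description and was not tested for binding.

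Forebrain levels were compared between genes in FPKM, which takes account of transcript length. In the 9 parental mice Cd74 (mean 3.77 FPKM) and H2-DMa (3.25) were the most abundant of the 10 RNAs. The classical chains came below them, with means of 1.25 FPKM for H2-Eb1, 0.706 for H2-Ab1 and 0.635 for H2-Aa, and Ciita was the lowest with 0.0510. In the 12 PS19 mice Cd74 rose to a mean of 19.9 FPKM, H2-Eb1 to 3.76, H2-Aa to 2.96 and H2-Ab1 to 2.85, whereas H2-DMa stood at 3.44. H2-DMa, well above the classical chains in parental mice, was therefore level with them in PS19 mice.

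The first comparisons ask what the tau transgene and paralysis changed within each APOE line. A gene was called when its adjusted p was under 0.05 and its change at least 2-fold by the quasi-likelihood F test of edgeR, with p-values adjusted after Benjamini and Hochberg over all genes tested. Of the 10 genes, 7 were called in at least 1 line, and every call was an increase in PS19 mice. PS/E4H mice had 7 calls against E4H, where 2.4% of all 20844 genes tested were called as higher. PS/E3H mice had 6 calls against E3H, where 1.2% of 21251 genes were called as higher, and PS/E2H mice had 2 against E2H, where 0.451% of 20617 genes were. The median log2 fold change of the 10 genes was 1.75 in the APOE4 line, 1.44 in the APOE3 line and 0.71 in the APOE2 line, beside medians of -0.0023, -0.0043 and -0.015 over all genes tested. H2-DMa, H2-DMb2 and Ciita were called in none of the comparisons. In bulk forebrain, more cells that express a gene and more RNA per cell cannot be told apart, and this holds for every value given here.

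**Figure D1:**
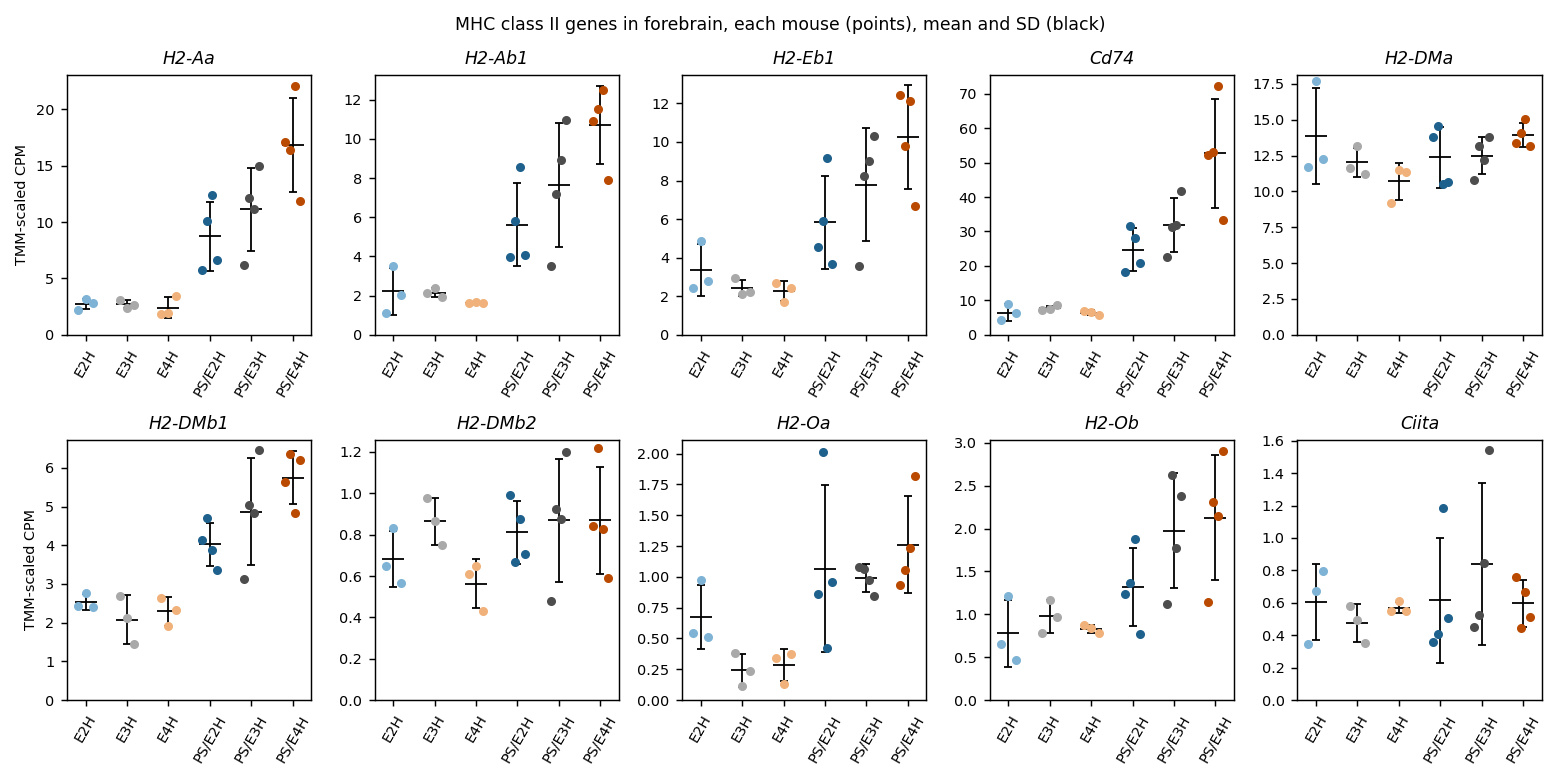
TMM-scaled CPM (y axis, linear from 0) of the 10 MHC class II genes in each of 21 mice (points), by group (x axis), with the group mean and SD in black. H2-Aa, Cd74 and H2-DMb1 show no overlap between the 9 parental and the 12 PS19 mice, while H2-DMa, H2-DMb2 and Ciita show none of this separation. The share of all genes that separate across these 9 and 12 mice was not counted.

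Cd74 encodes the invariant chain and had the largest fitted change of the 10 genes in each line, level with H2-Aa and H2-Oa in the APOE3 line. Its levels in CPM, read counts scaled to a common library size with TMM factors over all mice, were 6.95, 6.64 and 5.68 in the 3 E4H mice and 52.3, 53.1, 72.2 and 33.3 in the 4 PS/E4H mice. They were 7.34, 7.40 and 8.57 in E3H mice against 22.5, 31.2, 31.9 and 41.7 in PS/E3H mice, and 4.17, 8.92 and 6.28 in E2H mice against 18.2, 31.5, 28.2 and 20.8 in PS/E2H mice. The lowest PS19 mouse stood above the highest parental mouse in every line. The fold change was 8.18 in the APOE4 line (log2 3.03 ± 0.23 SE, adjusted p = 6.5e-05 by edgeR), 4.06 in the APOE3 line (log2 2.02 ± 0.18, adjusted p = 0.00101) and 3.82 in the APOE2 line (log2 1.93 ± 0.27, adjusted p = 0.0153). In the APOE2 line the call rested on E2H 1 and E2H 3, since the adjusted p by edgeR was 0.0647 without the first and 0.0944 without the second.

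H2-Aa encodes the alpha chain of the H2-A molecule, the main class II molecule of C57BL/6 mice. Its CPM was 1.81, 1.95 and 3.48 in E4H mice and 17.1, 16.4, 22.1 and 11.9 in PS/E4H mice. The values were 3.10, 2.40 and 2.66 in E3H against 6.23, 12.1, 11.2 and 15.01 in PS/E3H, and 2.21, 3.16 and 2.79 in E2H against 5.79, 10.1, 12.4 and 6.63 in PS/E2H. No parental mouse reached any PS19 mouse, and PS/E3H 1 was the lowest of its group for each of the classical chains and for Cd74. H2-Aa rose 6.93-fold in the APOE4 line (log2 2.79 ± 0.28, adjusted p = 0.000285 by edgeR), 4.05-fold in the APOE3 line (log2 2.02 ± 0.26, adjusted p = 0.00438) and 3.20-fold in the APOE2 line (log2 1.68 ± 0.28, adjusted p = 0.0319). The APOE2 call was lost when E2H 1, E2H 2, E2H 3, PS/E2H 2 or PS/E2H 3 was left out, with adjusted p of 0.0581 to 0.164 by edgeR. PS/E2H 2 is 1 of the 4 mice low in Xist, and without it the APOE2 line had 1 called gene, Cd74.

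H2-Ab1 encodes the partner beta chain. It had 1.62, 1.69 and 1.63 CPM in E4H mice and 10.9, 11.5, 12.5 and 7.89 in PS/E4H mice, a 6.48-fold rise (log2 2.70 ± 0.18, adjusted p = 4.4e-05 by edgeR). E3H mice had 2.16, 2.39 and 1.93 CPM and PS/E3H mice 3.51, 7.18, 8.92 and 11.0, a 3.51-fold rise (log2 1.81 ± 0.33, adjusted p = 0.0153). In the APOE2 line the groups stood apart only narrowly: E2H 2 had 3.52 CPM, beside 1.11 and 2.02 in the other E2H mice, and PS/E2H 1, the lowest of its group, had 3.99, beside 5.83, 8.54 and 4.10. That difference, log2 1.34 ± 0.39, was not called (adjusted p = 0.207 by edgeR). The APOE3 call was lost without E3H 1, E3H 2 or E3H 3, with adjusted p of 0.0592 to 0.0847 by edgeR.

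H2-Eb1, the beta chain of the H2-E molecule, has no functional partner in C57BL/6 mice, whose H2-Ea gene has lost its promoter. It rose 4.52-fold in the APOE4 line, from 2.69, 1.69 and 2.41 CPM in E4H to 12.4, 9.77, 12.1 and 6.66 in PS/E4H (log2 2.18 ± 0.25, adjusted p = 0.00065 by edgeR). In the APOE3 line it rose 3.17-fold, from 2.93, 2.11 and 2.24 CPM to 3.55, 8.25, 9.04 and 10.3 (log2 1.67 ± 0.32, adjusted p = 0.0189), a call that was lost without E3H 1, E3H 2, E3H 3 or PS/E3H 4 (adjusted p 0.0511 to 0.0854 by edgeR). In the APOE2 line E2H 2 again was high, with 4.88 CPM beside 2.41 and 2.79, and overlapped the 4.56, 5.91, 9.18 and 3.69 CPM of PS/E2H mice. The difference there was log2 0.80 ± 0.34 and was not called (adjusted p = 0.432 by edgeR).

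H2-Ea itself had 0 counts in 19 mice, and 4 counts each in PS/E2H 2 and PS/E4H 3. The gene is transcribed in strains with the H2-k haplotype, which C3H mice carry, and its counts were near 0 in PS19 as in parental mice. H2-Eb2, a further beta chain gene of the region, had 0 to 31 counts and was called in no tau comparison.

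H2-DM is a dimer of the H2-DMa chain and either H2-DMb1 or H2-DMb2, and its subunits did not follow each other. H2-DMb1 had 2.65, 1.91 and 2.33 CPM in E4H mice and 5.62, 6.36, 4.83 and 6.19 in PS/E4H mice, a 2.50-fold rise (log2 1.32 ± 0.18, adjusted p = 0.00153 by edgeR). It rose 2.32-fold in the APOE3 line, from 2.69, 2.11 and 1.44 CPM to 3.12, 5.05, 4.84 and 6.47 (log2 1.22 ± 0.28, adjusted p = 0.0334). In the APOE2 line it had 2.44, 2.77 and 2.41 CPM in E2H and 4.13, 4.72, 3.88 and 3.37 in PS/E2H, with no overlap between the groups but no call (log2 0.66 ± 0.19, adjusted p = 0.195 by edgeR). The APOE3 call of H2-DMb1 was lost with every single mouse left out except PS/E3H 1, with adjusted p of 0.0633 to 0.125 by edgeR.

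H2-DMa was the one chain of the family with a high parental level and little movement. Its CPM was 9.21, 11.5 and 11.4 in E4H mice and 13.4, 14.1, 15.1 and 13.2 in PS/E4H mice, groups that did not overlap but differed by only log2 0.38 ± 0.11 (adjusted p = 0.0501 by edgeR). The differences were log2 0.05 ± 0.11 in the APOE3 line and log2 -0.17 ± 0.18 in the APOE2 line, where E2H 2 held the highest value of all 21 mice at 17.7 CPM. The H2-DMa gene model overlaps Brd2 on the opposite strand by 3094 bases. Brd2 had 10199 to 14478 counts per mouse, and its transcripts hold 8.43% of all 50-base windows found in H2-DMa transcripts. How many H2-DMa reads come from Brd2 was not tested.

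H2-DMb2 stayed near 1 CPM or below, from 0.430 to 0.976 CPM in parental mice and from 0.477 to 1.22 in PS19 mice. Its log2 differences were 0.62 ± 0.36, -0.0048 ± 0.35 and 0.25 ± 0.33 in the APOE4, APOE3 and APOE2 lines, none called. H2-DMb1 and H2-DMb2 are close copies, and H2-DMb2 holds 22.7% of the 50-base windows found in H2-DMb1, as H2-DMb1 holds 21.2% of those found in H2-DMb2. The split of reads between them is therefore uncertain.

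H2-DO, the inhibitor of H2-DM, is a dimer of H2-Oa and H2-Ob and is best known from B cells, and both chains were rare here. H2-Oa had 0.342, 0.133 and 0.377 CPM in E4H mice and 0.938, 1.05, 1.24 and 1.82 in PS/E4H mice. It had 0.380, 0.112 and 0.233 CPM in E3H and 1.08, 1.07, 0.972 and 0.841 in PS/E3H. The PS19 mice lay above the parental mice in both lines, by 4.42-fold in the APOE4 line (log2 2.14 ± 0.44, adjusted p = 0.0104 by edgeR) and 4.01-fold in the APOE3 line (log2 2.005 ± 0.44, adjusted p = 0.0285). E2H mice already had 0.544, 0.972 and 0.509 CPM, and PS/E2H mice ranged from 0.422 to 2.02, so that the groups overlapped (log2 0.66 ± 0.51, adjusted p = 0.737 by edgeR). These are small numbers of reads, 7 to 55 counts in parental and 26 to 118 in PS19 mice, and 15.5% of the 50-base windows of H2-Oa also occur in the antisense gene BC051537, which had 0 to 39 counts. Without the 3 mice low in Xist in the APOE4 line its change was log2 2.26 with adjusted p = 0.0606 by edgeR, and 6 members were called there. The APOE3 call of H2-Oa was lost without any one mouse except PS/E3H 1 (adjusted p 0.0543 to 0.102 by edgeR).

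H2-Ob had 0.878, 0.836 and 0.780 CPM in E4H mice and 1.15, 2.31, 2.15 and 2.91 in PS/E4H mice, a 2.55-fold rise (log2 1.35 ± 0.32, adjusted p = 0.0183 by edgeR). The call was lost without E4H 1, E4H 2 or E4H 3 (adjusted p 0.0589 to 0.0765 by edgeR). In the APOE3 line it went from 0.787, 1.17 and 0.973 CPM to 1.12, 2.63, 1.77 and 2.38, and PS/E3H 1 lay below the highest E3H mouse. The difference there (log2 1.005 ± 0.32, adjusted p = 0.1001) and in the APOE2 line (log2 0.76 ± 0.41, adjusted p = 0.574) was not called by edgeR.

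Ciita, the transactivator, had the lowest group means of the 10 genes in FPKM, and 24 to 108 counts per mouse. E4H mice had 0.550, 0.611 and 0.551 CPM and PS/E4H mice 0.760, 0.445, 0.666 and 0.513, so the groups overlapped in the line where the classical genes rose most. The log2 difference was 0.06 ± 0.35 in the APOE4 line, 0.81 ± 0.48 in the APOE3 line and 0.02 ± 0.52 in the APOE2 line (adjusted p 0.373 to 0.995 by edgeR). The 2 highest values, 1.54 CPM in PS/E3H 4 and 1.19 in PS/E2H 3, were in the mice with the highest H2-Ab1 and H2-Eb1 of their own groups. Its standard errors of 0.35 to 0.52 on the log2 scale mean that smaller changes of Ciita were not detectable at this depth. The Ciita gene model overlaps Dexi on the opposite strand by 25888 bases. Dexi had 1336 to 2277 counts per mouse, and its transcripts hold 1.46% of the 50-base windows found in Ciita transcripts. How many Ciita reads come from Dexi was not tested.

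**Figure D2:**
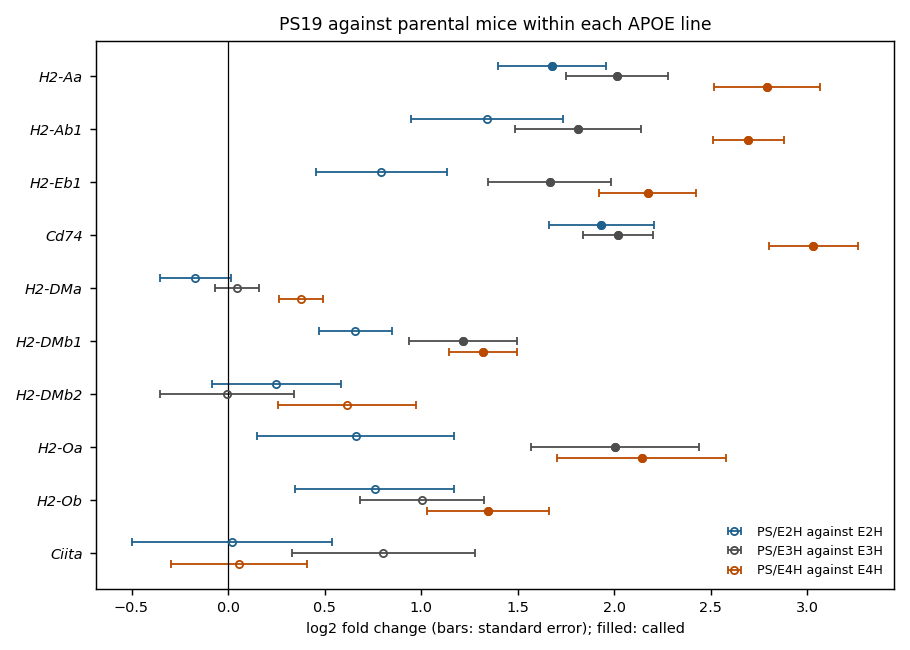
Log2 fold change (x axis) of each of the 10 genes (y axis) between PS19 and parental mice of the APOE2, APOE3 and APOE4 lines, with bars of 1 standard error and filled points for called genes. The APOE4 line lies farthest to the right for H2-Aa, H2-Ab1, H2-Eb1 and Cd74, and H2-DMa, H2-DMb2 and Ciita have no filled point.

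Counted by overlap, 8 of the 10 genes had every PS/E4H mouse above every E4H mouse, where 15% of all genes tested did. The count was 6 in the APOE3 line, where 10.5% of genes did, and 4 in the APOE2 line, where 6.67% did. The 3 lines share no mice. When all 21 mice entered a single fit with the APOE line as a term, 7 genes were called, where 2.24% of 22863 genes were called as higher. The pooled log2 changes were 2.33 ± 0.19 for Cd74, 2.16 ± 0.20 for H2-Aa, 1.94 ± 0.24 for H2-Ab1, 1.57 ± 0.31 for H2-Oa, 1.54 ± 0.23 for H2-Eb1, 1.07 ± 0.14 for H2-DMb1 and 1.05 ± 0.21 for H2-Ob, with adjusted p of 1.3e-08 to 0.000972 by edgeR. H2-DMb2 (0.29 ± 0.18), Ciita (0.30 ± 0.26) and H2-DMa (0.09 ± 0.09) were not called. The pooled change of H2-DMb1 came just under 2-fold without E3H 3 (log2 0.998), and that of H2-Ob without E2H 3, PS/E2H 3, PS/E3H 2 or PS/E4H 4 (log2 0.976 to 0.995).

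The next comparisons set mice with different human APOE alleles against each other, first without and then with the tau transgene. Among parental mice none of the 10 was called in E2H against E3H, E4H against E3H or E4H against E2H by edgeR, where 0.144%, 0.1% and 0.187% of all genes tested were called in either direction. The number of members with an unadjusted p under 0.05 was 1, 0 and 1 in that order, beside 14.1%, 6.67% and 12.4% of all genes tested, and DESeq2 and limma called none of the members. The gene behind both was H2-Oa, higher in all 3 E2H mice than in any E3H mouse (log2 1.45 ± 0.55, adjusted p = 0.304 by edgeR) and lower in all 3 E4H mice than in any E2H mouse (log2 -1.23 ± 0.53, adjusted p = 0.395). These 2 comparisons share the E2H mice. Groups did not overlap in the same direction for 12.8% and 11.5% of all genes tested, and H2-DMa was also lower in all 3 E4H mice than in any E2H mouse. Cd74, H2-Ab1 and H2-DMb2 were lower in all 3 E4H mice than in any E3H mouse, as were 6.37% of all genes tested, with unadjusted p of 0.0661, 0.0727 and 0.0928 by edgeR and no call. The parental levels of Cd74 had means of 6.45 ± 2.38 CPM in E2H, 7.77 ± 0.70 in E3H and 6.42 ± 0.66 in E4H (SD, n = 3).

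PS19 mice were taken at paralysis, and the study reports that PS/E3H mice reached it later than PS/E2H and PS/E4H mice. The APOE allele and the age at sampling therefore cannot be told apart among PS19 groups. Among PS19 mice the mean CPM was highest in PS/E4H and lowest in PS/E2H for all of the 10 genes but H2-Oa and Ciita. For H2-DMb2 the PS/E4H and PS/E3H means were level, at 0.870 and 0.869 CPM. Cd74 averaged 52.7 ± 15.9 CPM in PS/E4H, 31.8 ± 7.85 in PS/E3H and 24.7 ± 6.24 in PS/E2H (SD, n = 4). H2-Aa averaged 16.9 ± 4.17, 11.1 ± 3.65 and 8.74 ± 3.09 CPM in the same order. PS/E3H mice overlapped both of the other groups for each of the 10 genes. Against PS/E3H, Cd74 was higher in PS/E4H by log2 0.72 ± 0.22 (unadjusted p = 0.00723, adjusted p = 0.758 by edgeR) and was not called. PS/E4H against PS/E2H was the widest contrast: Cd74 was 2.14-fold higher (log2 1.10 ± 0.23, unadjusted p = 0.00047, adjusted p = 0.158 by edgeR), and all 4 PS/E4H mice lay above all 4 PS/E2H mice.

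H2-DMb1 was the only other gene of the set whose PS/E4H and PS/E2H mice did not overlap (log2 0.51 ± 0.16, adjusted p = 0.305 by edgeR), and 3.47% of all genes tested were higher in this way. For H2-Aa, H2-Ab1 and H2-Eb1 the log2 differences were 0.95 ± 0.25, 0.93 ± 0.24 and 0.81 ± 0.28, with overlap through PS/E4H 4, the lowest PS/E4H mouse, and PS/E2H 3, the highest PS/E2H mouse. None of the 10 genes was called in this contrast by edgeR, where 0.109% of all genes tested were called, although 5 had an unadjusted p under 0.05, as had 12.3% of all genes tested. DESeq2 called 1, Cd74 (log2 1.10, adjusted p = 0.0162), and edgeR also called Cd74 when all 21 mice shared a single fit (adjusted p = 0.0333). Both settings called more genes in this contrast. DESeq2 called 40 higher and 27 lower of 17107, and the single fit 27 higher and 21 lower of 22863. The main edgeR fit called 14 higher and 8 lower of 20202. The lowest adjusted p in PS/E4H against PS/E3H was 0.758 and in PS/E2H against PS/E3H 0.476 by edgeR. EdgeR called 0.0197% and 0.108% of all genes tested in these contrasts. DESeq2 and limma called 0 members in either. DESeq2 called 14 genes higher and 6 lower of 25780 in the first contrast, and 26 higher and 38 lower of 20572 in the second. Unadjusted p was under 0.05 for 2 and 0 members respectively, and for 6.51% and 11.7% of all genes tested. The 3 contrasts share their PS19 groups. PS/E4H 1, PS/E4H 4 and PS/E2H 2 are low in Xist and no PS/E3H mouse is. These contrasts were not refitted without those mice together.

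**Figure D3:**
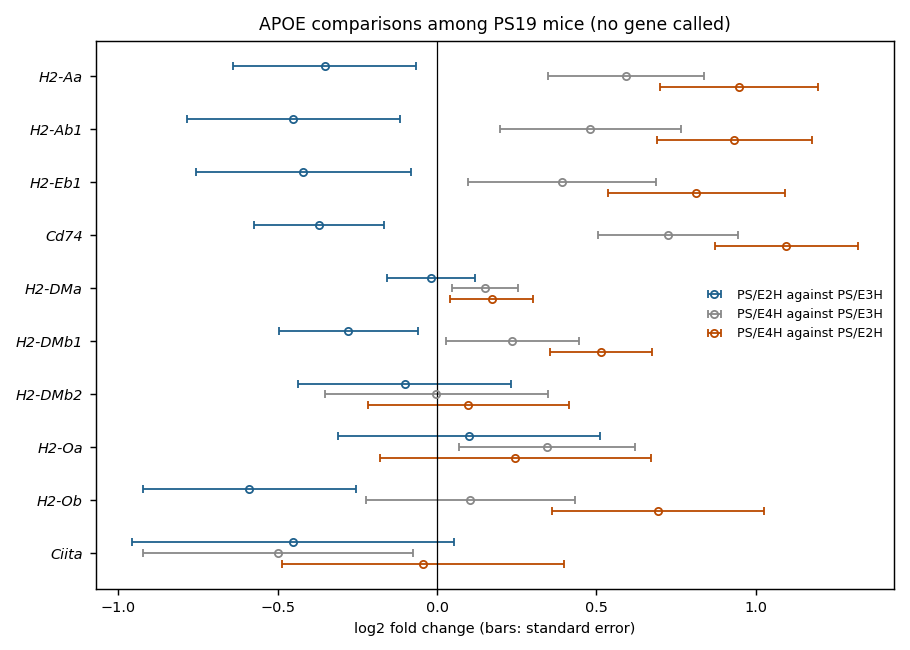
Log2 fold change (x axis) of each of the 10 genes (y axis) between pairs of PS19 groups that differ in the APOE allele, with bars of 1 standard error. The PS/E4H against PS/E2H points of Cd74, H2-Aa, H2-Ab1 and H2-Eb1 lie between 0.81 and 1.10, and no gene was called.

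Whether the difference between PS19 and parental mice varied between APOE lines was tested by an interaction term. Age at paralysis enters these terms as well and cannot be told apart from the allele in them. No member was called in any of the 3 interactions by edgeR, DESeq2 or limma, and 0% of all genes tested were called by edgeR, where DESeq2 called 11 genes for APOE2 versus APOE3, 9 for APOE4 versus APOE3 and 123 for APOE4 versus APOE2. Between the APOE4 and APOE2 lines 7 members and 10.1% of all genes tested had an unadjusted p under 0.05, among the members H2-Eb1 (log2 1.38 ± 0.45), H2-Ab1 (1.35 ± 0.46), H2-Aa (1.11 ± 0.41) and Cd74 (1.10 ± 0.37), with adjusted p of 0.370 to 0.402 by edgeR. All 10 terms were positive in that contrast. Between the APOE4 and APOE3 lines 2 members and 3.81% of all genes tested had an unadjusted p under 0.05, with Cd74 at log2 1.01 ± 0.30 (adjusted p = 0.9999 by edgeR), and between the APOE2 and APOE3 lines none did. The larger number of calls in the APOE4 line is thus not shown to be a larger effect.

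Genes that act with the class II molecules were then counted from lists of known pathway members. Of 8 lysosomal enzymes that process antigen or the invariant chain, 5 were called as higher in PS/E4H and in PS/E3H mice and 2 in PS/E2H mice. Their median log2 change was 1.64, 1.20 and 0.93 in the APOE4, APOE3 and APOE2 lines. Ctss, the cathepsin that makes the last cut in the invariant chain of macrophages and dendritic cells, rose 3.98-fold, 2.79-fold and 2.10-fold (adjusted p = 1.3e-05, 0.00238 and 0.00576 by edgeR). Ctsd, an aspartic protease, rose 3.23-fold, 2.64-fold and 2.17-fold. Ifi30, which reduces disulfide bonds in endosomal antigens, rose 3.59-fold in the APOE4 line and 3.14-fold in the APOE3 line, as did Ctsh (3.36-fold and 2.15-fold) and Ctsz (3.002-fold and 2.45-fold).

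The regulators of class II transcription held no called gene. None of the 7 subunits of the RFX, NF-Y and CREB complex was called in any line by edgeR (0, 1 and 0 with an unadjusted p under 0.05 in the APOE2, APOE3 and APOE4 lines), and their log2 changes lay between -0.19 and 0.10. None of the 8 tested genes of the path from interferon-gamma to Ciita was called either (2, 1 and 2 with an unadjusted p under 0.05). Unadjusted p by edgeR was under 0.05 for 10.7%, 21.4% and 30.1% of all genes tested in the APOE2, APOE3 and APOE4 lines. Ifngr1, a receptor chain, was 1.55-fold higher in the APOE4 line (adjusted p = 0.00251 by edgeR), under the 2-fold limit, and Irf1, an interferon-induced transcription factor, was 1.20-fold higher (adjusted p = 0.249). Ifng itself had 0 to 4 counts per mouse.

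Among receptors for class II molecules, the CD4-like Lag3 rose 6.03-fold, 3.38-fold and 4.01-fold in the APOE4, APOE3 and APOE2 lines (adjusted p = 0.00031, 0.00015 and 0.00845 by edgeR). Which cells held the Lag3 RNA was not tested. Cd4, the coreceptor for class II, differed by log2 -0.23 ± 0.15, -0.12 ± 0.14 and -0.25 ± 0.21 and was not called. Cd86, a costimulatory ligand on antigen-presenting cells, rose 3.58-fold, 2.56-fold and 2.62-fold, while Cd80 and Cd40, also costimulatory, were not called. Cd80 differed by log2 -0.16 ± 0.28, 1.35 ± 0.41 and 0.53 ± 0.37 in the APOE4, APOE3 and APOE2 lines (adjusted p = 0.757, 0.0813 and 0.699 by edgeR). Cd40 differed by log2 0.27 ± 0.64, 0.79 ± 0.58 and 0.26 ± 0.53 in the same order. Of 4 genes tied to turnover or trafficking of class II molecules, Slc11a1, an ion transporter of phagocyte endosomes, rose 4.27-fold in the APOE4 line and 3.30-fold in the APOE3 line. Cd274, the ligand of the inhibitory receptor PD-1, was called in the APOE3 line (2.06-fold).

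**Figure D4:**
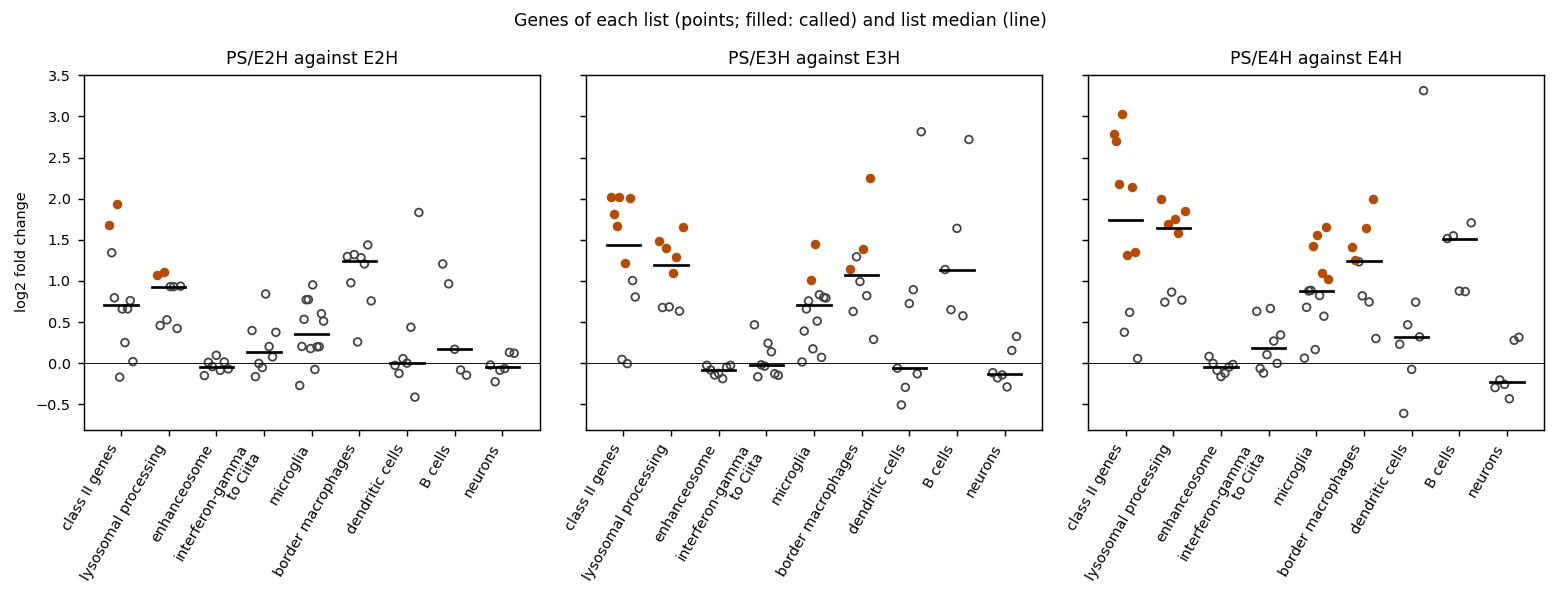
Log2 fold change (y axis) of the genes of 9 lists (x axis) between PS19 and parental mice in each APOE line, with filled points for called genes and a line at each list's median. The class II genes and the lysosomal enzymes have their medians at 0.71 and 0.93 in the APOE2 line and at 1.75 and 1.64 in the APOE4 line, while the enhanceosome list (RFX, NF-Y and CREB) lies near 0 in all 3.

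Markers of cells that can carry class II molecules moved with these genes in part. Of 12 microglia markers, 5 were called in PS/E4H (among them Fcrls, Olfml3, Aif1 and Itgam), 2 in PS/E3H (Fcrls among them) and 0 in PS/E2H by edgeR (4 with an unadjusted p under 0.05), with median log2 changes of 0.88, 0.71 and 0.36. Their summed level was 136.7 to 164.0 FPKM in parental mice, 147.5 to 278.0 in PS/E2H, 202.8 to 291.7 in PS/E3H and 264.5 to 332.2 in PS/E4H. P2ry12, a marker of resting microglia, did not move with them (log2 0.06 ± 0.10 in the APOE4 line). Of 8 markers of border-associated macrophages, 4 were called in PS/E4H by edgeR (Mrc1, Cd163, F13a1 and Ms4a7). In PS/E3H 3 were called (Mrc1, F13a1 and Ms4a7) and in PS/E2H 0 (7 with an unadjusted p under 0.05). Their median log2 changes were 1.24, 1.07 and 1.24 in the APOE4, APOE3 and APOE2 lines. Their summed level was 3.05 to 5.60 FPKM in parental and 5.86 to 10.97 in PS19 mice. Of all genes tested in the APOE2 line, 10.7% had an unadjusted p under 0.05 by edgeR. The part of either cell type in the class II changes was not tested.

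The sum of H2-Aa, H2-Ab1, H2-Eb1 and Cd74 was 3.13% to 5.12% of the summed microglia markers in the 9 parental mice, both in FPKM. It was 6.30% to 10.7% in PS/E2H, 8.05% to 12.1% in PS/E3H and 8.49% to 20.4% in PS/E4H mice. Every PS19 mouse thus had more RNA of these 4 genes per unit of microglia marker RNA than any parental mouse, while the 3 PS19 groups overlapped. The 4 genes were already called as higher in the same mice, so the ratio is no separate result. It does not describe the whole set. H2-DMa, outside the sum, had 2.47 to 4.32 FPKM in parental and 2.75 to 3.92 in PS19 mice.

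**Figure D5:**
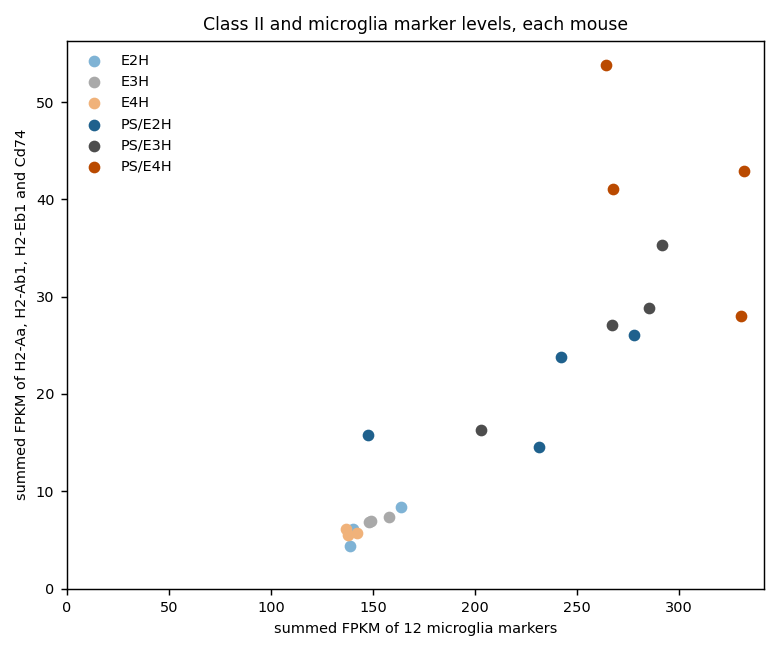
Summed FPKM of H2-Aa, H2-Ab1, H2-Eb1 and Cd74 (y axis) against summed FPKM of 12 microglia markers (x axis) in each mouse, both axes linear from 0. Parental mice sit at 136.7 to 164.0 on the x axis and 4.34 to 8.40 on the y axis, and PS/E4H mice reach 53.8 on the y axis.

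Markers of other class II-bearing cells ranged widely in level. Of 8 dendritic cell markers 7 were tested in each line, and none was called by edgeR. Of these, 0, 4 and 2 had an unadjusted p under 0.05 in the APOE2, APOE3 and APOE4 lines. The tested markers had median log2 changes of 0.001, -0.06 and 0.32 in the same order. The summed level of all 8 was 3.48 to 4.84 FPKM over all mice, Xcr1 had 0 to 11 counts and Clec9a 7 to 29. Flt3 and Zbtb46 of the same list were higher, with group means of 8.51 to 10.6 and 7.36 to 11.2 CPM. Zbtb46 was lower in PS19 mice in the pooled fit (log2 -0.41 ± 0.09, adjusted p = 0.00158 by edgeR), short of the 2-fold limit. Of 8 B cell markers 5 were tested in each line, and none was called by edgeR (0, 2 and 1 with an unadjusted p under 0.05). The tested B cell markers had median log2 changes of 0.17, 1.14 and 1.52 in the APOE2, APOE3 and APOE4 lines. Among all genes tested, the share with an unadjusted p under 0.05 was 10.7%, 21.4% and 30.1% in these lines. Ms4a1 had 0 to 32 counts, although Ighm had 431 to 3597. In the pooled fit Ccr7 of the dendritic list (log2 2.60 ± 0.84) and Jchain of the B cell list (1.41 ± 0.46) were called, as were Ccr2 of the monocyte or neutrophil list (1.11 ± 0.37) and Cd8b1 of the T cell list (3.73 ± 1.08), with Ccr7 at 0 to 40 and Cd8b1 at 0 to 16 counts per mouse. Among T cell and monocyte or neutrophil markers, Cd3g (0 to 4 counts in E4H and 11 to 35 in PS/E4H) and S100a8 (0 to 7 and 10 to 273) were called in the APOE4 line. No other marker of either list was called within a line. In the APOE2, APOE3 and APOE4 lines 4, 6 and 4 of 8 T cell markers were tested. Their median log2 changes were -0.09, 0.93 and 0.11. All 8 summed to 11.75 to 13.48 FPKM in E4H and 7.57 to 16.81 in PS/E4H mice. For 7, 7 and 6 tested monocyte or neutrophil markers the medians were -0.30, 2.775 and 1.23. Gfap, the astrocyte filament, rose 8.45-fold, 6.32-fold and 4.92-fold in the APOE4, APOE3 and APOE2 lines.

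Within groups, some of the class II genes varied together from mouse to mouse. Each mouse's deviation from its group mean in log2 CPM was correlated over the 21 mice, as a description over mice that share group and library preparation. Pearson's r was 0.705 to 0.875 between pairs of H2-Aa, H2-Ab1, H2-Eb1 and Cd74. Between these 4 genes and H2-DMa, H2-DMb1, H2-DMb2 or H2-Ob it was lower, at 0.239 to 0.604. Ciita had r of 0.546 to 0.753 with these 4 genes, although its group means did not follow theirs. H2-Oa had r of -0.372 to 0.281 with the other 9 genes.

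The 10 genes outside the set that followed the mean deviation of the 4 genes most closely, among 15767 with a mean of at least 1 CPM, were Mfsd1 (r = 0.899), Pygl (0.869), Laptm5 (0.837), Cyba (0.825), Gfap (0.820), Mlc1 (0.817), Lix1l (0.813), Itgb5 (0.803), Sox18 (0.794) and Glipr1 (0.793). Laptm5 is a lysosomal protein of blood-derived cells and microglia, Cyba a subunit of the phagocyte NADPH oxidase, and Gfap and Mlc1 are astrocyte genes. They were picked as the highest of many, so their r values are not estimates of a relation in other mice.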

How the data were processed

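Poly(A) RNA of 21 forebrains was sequenced with a stranded kit. The authors trimmed reads with Cutadapt, aligned them with HISAT2 (GRCm38.p5 per the labels, Ensembl annotation), assembled transcripts with StringTie, and deposited raw counts per gene and, in a second table, FPKM computed by StringTie. No deposited column was left without a mouse (0 unmapped). Total counts were 59265459 to 75932183 per mouse, and the depth limits what can be said of genes under about 1 CPM.

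Counts were fitted with edgeR 4.0.16 in R 4.3.3 (quasi-likelihood F test, TMM scaling, filterByExpr with a count minimum of 10, Benjamini-Hochberg over all genes tested). Pairwise fits held only the groups compared, interactions the 4 groups of both lines, and the pooled fit all 21 mice with APOE line as a term. Calls needed adjusted p under 0.05 and a 2-fold change, and interactions adjusted p under 0.05. The standard error is the absolute log2 fold change over the square root of F. Alternatives used DESeq2 1.42.0 and limma 3.58.1 on log2 FPKM. The fit was tested on simulated counts.

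The members and lists were chosen with earlier results of these data known. All members are named. List genes are named when called in a tau comparison or set beside a member, and the 10 genes most alike by within-group correlation are named. Groups came from the sample labels. Mice within a group were separate animals, and none of the 27 pairs within groups held identical counts. Positions follow GENCODE M21 (GRCm38), and promoters follow RefSeq. Markers of neurons, oligodendrocytes, endothelium and choroid plexus had no called gene in any tau comparison, and of the astrocyte list only Gfap and, in PS/E4H, Aqp4 were called. Of the pituitary list only Prl was called, as lower in PS/E3H and in the pooled fit. Single values of a few list genes are not reported here.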

Additional observations from a re-analysis of the deposited data

How the results depend on the processing

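Counts of called members kept within 1.5 times of those given above under DESeq2's size factors in edgeR, without a fold limit and with limma on log2(FPKM + 0.1) in every comparison. The other settings moved some counts. PS/E2H against E2H fell from 2 calls to 1 with no filter on low counts, to 1 with limma on log2(FPKM + 1), and to 1 without the 4 mice low in Xist, an alternative chosen after seeing the data. With limma on log2(FPKM + 1), PS/E3H against E3H fell from 6 to 2, PS/E4H against E4H from 7 to 4 and the pooled fit from 7 to 4. A pseudocount of 1 shrinks changes of genes at or below 1 FPKM by construction. PS/E4H against PS/E2H went from 0 to 1 with DESeq2 and with a single fit of all 21 mice. With single mice left out, the calls numbered 0 to 2 in PS/E2H against E2H, 2 to 7 in PS/E3H against E3H, and 6 to 7 in PS/E4H against E4H and in the pooled fit, and 0 calls in each APOE comparison and interaction.

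The replicate numbers are shared between groups, but the 30 correlations of same-numbered mice in their deviations from group means lay between -0.12 and 0.09, so the numbers do not pair the mice. With the replicate block PS/E3H against E3H gave 3 calls, and the block kept the other counts within 1.5 times.

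Some near-zero log2 changes turned sign. With single mice left out, H2-DMa ranged from -0.28 to 0.043 in the APOE2 line and from -0.0032 to 0.12 in the APOE3 line, H2-DMb2 from -0.20 to 0.20 in the APOE3 line, and Ciita from -0.51 to 0.28 in the APOE2 line and from -0.076 to 0.18 in the APOE4 line. H2-DMa in the APOE3 line was -0.0044 and Ciita in the APOE2 line -0.016 with the replicate block. H2-DMb2 in the APOE3 line was 0.0036 with no filter and 0.0071 in a single fit of all 21 mice, and Ciita in the APOE4 line was -0.072 without the 4 mice low in Xist.

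Of 954 values of single members under an alternative, 876 kept direction and side of the threshold, 59 lost a call, 6 gained one and 13 turned sign. Over all genes, the calls in the APOE2, APOE3 and APOE4 lines were 93, 254 and 500 higher and 7, 27 and 121 lower by edgeR. DESeq2 called 238 higher in the APOE2 line, a single fit of all mice 194 and no filter 52. In the APOE3 line the replicate block called 141 higher, no filter 162 and limma on log2(FPKM + 0.1) 164. Limma on log2(FPKM + 1) called 30, 56 and 128 higher and 1, 3 and 4 lower, and 79 higher in the pooled fit, where edgeR called 511 and limma on log2(FPKM + 0.1) 304. The 6 APOE comparisons held 4 to 39 called genes with edgeR, 20 to 77 with DESeq2 and 2 to 23 with limma on log2(FPKM + 1). Where not said otherwise, the cause of a change between settings was not tested. Small differences of H2-Oa, H2-DMb2 and Ciita were not detectable at their low counts with 3 or 4 mice a group.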
